A study of Mus musculus with 6 samples.

Results

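Epithelial-mesenchymal transition (EMT) is a programme in which epithelial cells loosen their junctions and take on features of mesenchymal cells. Its core regulators are the zinc finger repressors of the SNAI and ZEB families, the helix-loop-helix factor TWIST1 and the homeobox factor PRRX1. SNAI and ZEB proteins bind E-box motifs and repress Cdh1, the gene of the epithelial adhesion molecule E-cadherin, while N-cadherin (Cdh2) and the intermediate filament protein vimentin (Vim) mark mesenchymal cells. In the mammary gland several of these genes also belong to normal basal cells: SNAI2, P-cadherin (Cdh3) and vimentin are found in the basal and myoepithelial layer, beneath the luminal cells.

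The genes described are 10 chosen by name: the transcription factor genes Snai1, Snai2, Zeb1, Zeb2, Twist1 and Prrx1, the cadherin genes Cdh1, Cdh2 and Cdh3, and Vim. Of these, 9 had a probe set naming that gene alone, among 22180 genes tested in all. Zeb2 did not: both probe sets that list it also list a second gene, so no Zeb2 level is given. The 9 measured genes all had a mean over 4 on the deposited log2 scale, as did 14720 of all genes. The lowest means were those of Zeb1 (4.39) and Snai1 (4.85), against array medians of 4.35 to 4.40 over all probe sets. Without detection values, neither can be told from background. A difference of 1 on this scale is a 2-fold difference.

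The samples were 3 arrays of Mll3-null mouse mammary stem cells and 3 arrays of wild-type (WT) cells of the same kind, each labelled a biological replicate. The lines were made by CRISPR and the cells of both genotypes were grown as organoids, 3-dimensional cultures. Kmt2c is the gene of MLL3, which methylates histone H3 at enhancers. No label tells whether the 3 replicates are different lines or repeat cultures of 1 line, so the p-values cover only the spread among these arrays, which may be technical. RNA came from whole cultures, so fewer cells of a type and less RNA per cell cannot be told apart. Strain and age of the source animals were not stated.

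Kmt2c, the targeted gene, was at 5.84, 6.42 and 6.07 (log2 expression) in the 3 Mll3-null arrays (in the order of replicates 1 to 3, as in all such lists), against 6.63, 5.58 and 5.82 in the 3 WT arrays. The groups overlapped, and the position of the probe set relative to the CRISPR change is unknown, so this level does not check the labels. Mll3-null replicate 3 stood apart: its correlation with the other 5 arrays was 0.961 to 0.979 across genes, which are not independent replicates, against 0.983 to 0.993 among those 5. In this array 294 genes (1.33% of those tested) lay more than 1 log2 unit below all 5 other arrays. Differences of the EMT genes and list medians are therefore given with and without this array.

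The labelled cell type was checked against mammary markers. The epithelial marker Epcam was at 10.94, 10.83 and 10.72 in the 3 Mll3-null arrays and 10.72, 10.89 and 10.93 in the 3 WT arrays. The basal keratin gene Krt14 was at 12.43, 12.25 and 6.65 in Mll3-null cells, against 12.41, 12.32 and 11.74 in WT cells. The basal regulator Trp63 was at 8.84, 8.25 and 5.02 in Mll3-null cells, against 8.79, 8.04 and 7.86 in WT cells. Epcam stood at a like level on all 6 arrays, while Krt14 and Trp63 were low in Mll3-null replicate 3 alone. Not all basal markers were: of the 9 measured, 4 lay more than 1 log2 unit below all other arrays there and 1 lay more than 1 unit above. The shares of all genes were 1.33% and 0.555%. The 10 fibroblast markers averaged 4.07 to 4.26 in Mll3-null arrays and 4.05 to 4.23 in WT arrays, and Dcn, the proteoglycan decorin of fibroblasts, stood at 3.01 to 3.06 in Mll3-null and 2.80 to 3.20 in WT arrays. The 7 endothelial markers averaged 3.82 to 3.95 in Mll3-null and 3.80 to 3.90 in WT arrays, and the 8 immune markers 3.77 to 3.91 in Mll3-null and 3.72 to 3.87 in WT arrays. Ptprc, the common leukocyte antigen CD45, was at 3.11 to 3.22 in Mll3-null and 3.05 to 3.25 in WT arrays. Without detection values no marker can be called absent.

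None of the 9 measured EMT genes passed the correction for a difference between Mll3-null and WT cells, which does not show them to be unchanged. With limma and Benjamini-Hochberg adjustment over all genes, 0 of 9 had an adjusted p under 0.05, as did 0 of all genes (0%), and adjusted p ran from 0.84 to 0.99 over the 9. At an unadjusted p under 0.05 there was 1 of the 9, Cdh1, against 4.93% of all genes (1093 of 22180). Genes both under that p and, like Cdh1, lower in Mll3-null cells made up 2.42% of all genes. The mean was higher in Mll3-null cells for 3 genes (Snai1, Prrx1 and Zeb1, the last with a sign that other scalings turn) and lower for 6. The median difference over the 9 was -0.34, against 0.01 over all genes, and without Mll3-null replicate 3 it was -0.01 over the 9. The groups did not overlap for 1 of the 9, Snai1, against 10.7% of all genes.

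**Figure D1:**
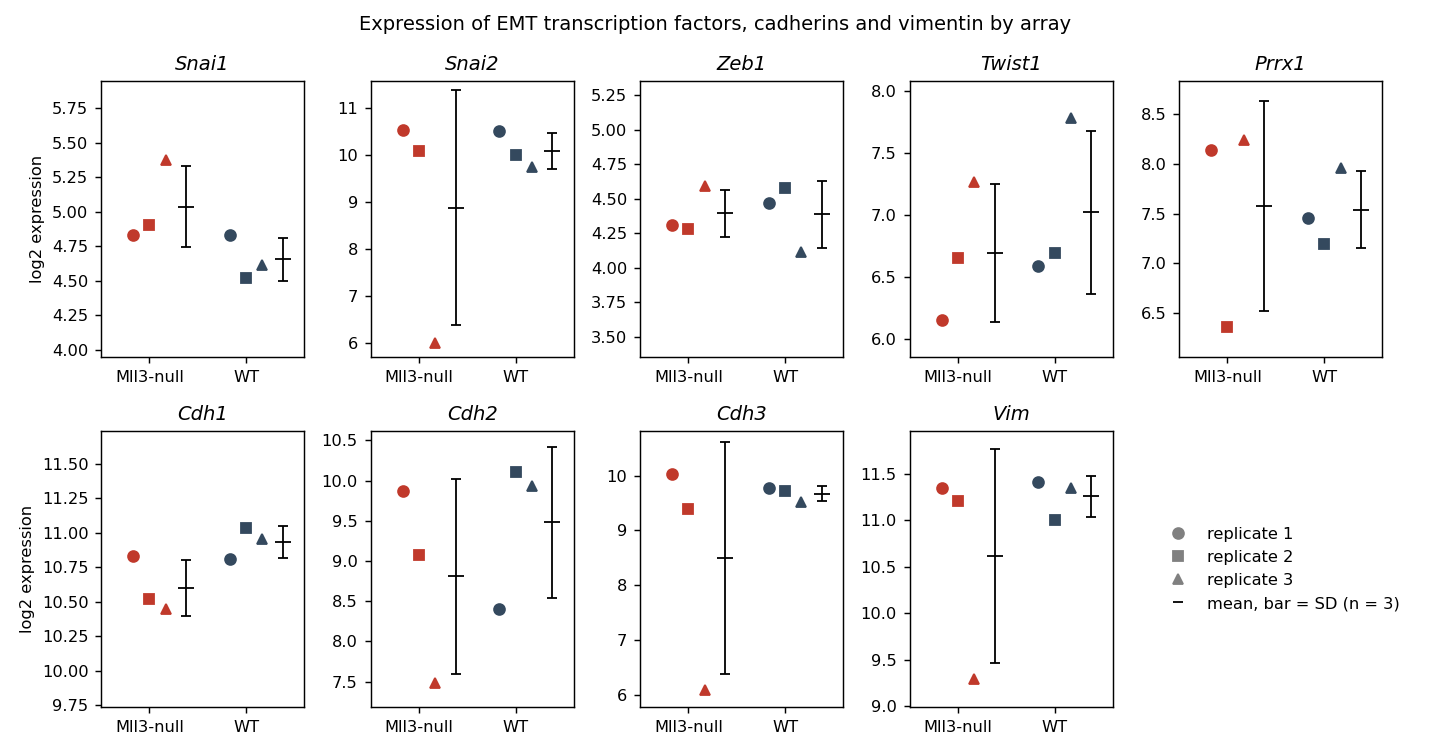
Expression (log2) of the 9 measured genes, 1 panel a gene, in Mll3-null (red) and WT (dark) arrays; marker shapes are the replicate numbers, and the black bar is the mean ± SD of 3 arrays. Mll3-null replicate 3 lies far below all other arrays for Snai2 (5.99), Cdh3 (6.08) and Vim (9.30), and the vertical scale differs between panels.

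Mll3-null replicate 3 was the lowest array for Snai2 and the highest for Snai1. Snai2, which encodes SLUG, a repressor that also maintains basal mammary cells, was at 10.53, 10.09 and 5.99 in the 3 Mll3-null arrays, against 10.50, 10.01 and 9.74 in the 3 WT arrays. The first 2 Mll3-null arrays lay within or just above the WT range, and the third lay 3.75 log2 units below the lowest other array. The mean was 8.87 ± 2.50 in Mll3-null and 10.08 ± 0.39 in WT cells (SD, n = 3 each). Mll3-null minus WT was -1.21 ± 1.15 (SE), with -3.96 to 1.54 as its 95% interval (limma adjusted p = 0.85), and without Mll3-null replicate 3 it was 0.23 ± 0.25, from -0.38 to 0.84 (adjusted p = 0.99).

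Snai1, which encodes SNAIL, the founding E-cadherin repressor, was at 4.83, 4.90 and 5.37 in the 3 Mll3-null arrays, against 4.83, 4.52 and 4.61 in the 3 WT arrays. The groups did not overlap, but Mll3-null replicate 1 and WT replicate 1 were equal to 2 decimals. The means were 5.04 ± 0.29 in Mll3-null and 4.65 ± 0.16 in WT cells (SD, n = 3 each). The difference was 0.38 ± 0.17 (SE; 95% interval -0.02 to 0.78; limma adjusted p = 0.84), or 1.30-fold. Without Mll3-null replicate 3, the highest array for Snai1, it was 0.21 ± 0.13 (adjusted p = 0.99).

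The bases before the annotated start are shown for Snai1, whose groups did not overlap, and for Vim, which was low in Mll3-null replicate 3. They were taken from RefSeq (GRCm38.p6), whose promoter table held 5 of the 10 genes. The E-box CACCTG, the form SNAI and ZEB proteins bind, was searched on both strands (CACCTG or CAGGTG) in the 250 bases before the start, with no other motif searched, and its letters are in capitals. It occurred in 17.1% of 27025 such windows, 1 for each gene. The Snai1 window, chr2:167537945-167538194 on the plus strand, held 1 copy that begins 126 bases before the start (position -126). The Vim window, chr2:13574061-13574310 on the plus strand, held no copy, nor did the windows of Twist1, Prrx1 and Zeb2, which says only that these letters are not in those windows.
Snai1: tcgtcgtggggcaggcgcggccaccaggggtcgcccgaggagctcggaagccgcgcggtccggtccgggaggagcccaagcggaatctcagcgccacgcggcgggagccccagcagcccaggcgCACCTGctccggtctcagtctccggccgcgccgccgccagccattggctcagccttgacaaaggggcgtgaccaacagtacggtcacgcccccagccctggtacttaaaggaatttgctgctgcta
Vim: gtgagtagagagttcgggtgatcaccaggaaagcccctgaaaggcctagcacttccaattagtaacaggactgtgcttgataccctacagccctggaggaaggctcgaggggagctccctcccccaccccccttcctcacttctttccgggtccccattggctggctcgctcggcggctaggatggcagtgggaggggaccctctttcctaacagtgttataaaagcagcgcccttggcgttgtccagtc

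Zeb1, a repressor of epithelial genes, was at 4.31, 4.28 and 4.59 in the 3 Mll3-null arrays, against 4.47, 4.58 and 4.12 in the 3 WT arrays. The groups overlapped. The difference was 0.01 ± 0.15 (SE; 95% interval -0.36 to 0.37; limma adjusted p = 0.99), and -0.09 ± 0.16 without Mll3-null replicate 3. Centring the arrays on their medians (-0.016) or quantile normalization (-0.022) turned its sign, so no direction is given.

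ZEB genes and the microRNAs of the miR-200 family repress each other, and miR-205 also targets ZEB genes. The mature sequences are shown to set out their shared seeds (bases 2 to 8, in capitals), taken from RefSeq (GRCm38.p6). The family falls into 2 seed groups, AAUACUG in miR-200b, miR-200c and miR-429 and AACACUG in miR-200a and miR-141, while miR-205 has another seed, CCUUCAU.
miR-200b-3p: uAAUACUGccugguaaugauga
miR-200c-3p: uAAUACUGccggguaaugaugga
miR-429-3p: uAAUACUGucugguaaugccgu
miR-200a-3p: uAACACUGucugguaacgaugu
miR-141-3p: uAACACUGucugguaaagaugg
miR-205-5p: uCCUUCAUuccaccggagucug

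The array carries probe sets under the names of these microRNA genes, which do not separate mature arms from longer transcripts of the locus. They were chosen after their values were seen. Mir205 was at 7.34, 6.80 and 3.03 in the 3 Mll3-null arrays, against 7.14, 7.62 and 7.20 in the 3 WT arrays. It was low only in Mll3-null replicate 3 of the 6 arrays, the array that was also low for Snai2. The Mll3-null minus WT difference was -1.60 ± 1.07 (SE; limma adjusted p = 0.84), and -0.25 ± 0.22 without that array (adjusted p = 0.99). Mir200a (0.11 ± 0.11), Mir200b (-0.05 ± 0.15), Mir200c (0.33 ± 0.14) and Mir141 (-0.29 ± 0.11) had adjusted p from 0.84 to 0.95. Without Mll3-null replicate 3 these differences were 0.11 ± 0.13 for Mir200a, -0.13 ± 0.16 for Mir200b, 0.25 ± 0.15 for Mir200c and -0.23 ± 0.12 for Mir141. Mir141 was low on every array, at 2.75 to 3.26. The Mir429 probe set also lists a second gene and is not described.

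Twist1, a developmental regulator of mesoderm, was at 6.15, 6.66 and 7.26 in the 3 Mll3-null arrays, against 6.59, 6.69 and 7.78 in the 3 WT arrays. The highest value was that of WT replicate 3, and the groups overlapped. The difference was -0.33 ± 0.40 (SE; 95% interval -1.28 to 0.62; limma adjusted p = 0.88). It was -0.61 ± 0.38 without Mll3-null replicate 3 and 0.050 without WT replicate 3, so the direction rested on single arrays.

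Prrx1, a homeobox factor of limb and craniofacial mesenchyme, was at 8.14, 6.35 and 8.24 in the 3 Mll3-null arrays, against 7.46, 7.20 and 7.96 in the 3 WT arrays. The Mll3-null arrays held both the highest values and the lowest, that of replicate 2. The means were 7.58 ± 1.06 in Mll3-null and 7.54 ± 0.39 in WT cells (SD, n = 3 each), a difference of 0.04 ± 0.52 (SE; 95% interval -1.20 to 1.27; limma adjusted p = 0.99). Leaving out Mll3-null replicate 3 gave -0.29, and leaving out replicate 2 of the same group gave 0.65.

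Cdh1, which encodes E-cadherin, the main adhesion molecule of epithelial adherens junctions, was at 10.83, 10.52 and 10.44 in the 3 Mll3-null arrays, against 10.81, 11.03 and 10.96 in the 3 WT arrays. Mll3-null replicates 2 and 3 lay below all WT arrays, while replicate 1 lay just above the lowest of them. The means were 10.60 ± 0.20 in Mll3-null and 10.93 ± 0.11 in WT cells (SD, n = 3 each). A difference of -0.34 ± 0.13 (SE; 95% interval -0.65 to -0.03), or 0.792-fold, had an unadjusted p of 0.038 and did not pass the correction (limma adjusted p = 0.84). Without Mll3-null replicate 3 it was -0.26 ± 0.14 (95% interval -0.59 to 0.08; adjusted p = 0.99).

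Cdh3, which encodes P-cadherin of basal and myoepithelial cells, is the nearest protein-coding neighbour of Cdh1 on one side in the RefSeq annotation. It was at 10.03, 9.38 and 6.08 in the 3 Mll3-null arrays, against 9.78, 9.71 and 9.51 in the 3 WT arrays. Replicate 3 lay 3.30 log2 units below the lowest other array, while replicates 1 and 2 lay on either side of the WT range. The difference was -1.17 ± 0.96 (SE; 95% interval -3.48 to 1.14; limma adjusted p = 0.85), against 0.04 ± 0.21 (-0.46 to 0.55) without Mll3-null replicate 3.

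Cdh2, which encodes N-cadherin, was at 9.86, 9.07 and 7.49 in the 3 Mll3-null arrays, against 8.40, 10.10 and 9.94 in the 3 WT arrays. Low values occurred in both groups, in Mll3-null replicate 3 and WT replicate 1. The difference was -0.67 ± 0.70 (SE; 95% interval -2.34 to 1.00; limma adjusted p = 0.86), and -0.01 ± 0.54 without Mll3-null replicate 3. Without WT replicate 1 it was -1.21. Where Cdh3 and Snai2 differed on 1 array only, Cdh2 varied on at least 2.

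Vim was at 11.34, 11.21 and 9.30 in the 3 Mll3-null arrays, against 11.42, 11.01 and 11.35 in the 3 WT arrays. Replicates 1 and 2 fell within the WT range and replicate 3 lay 1.71 log2 units below the lowest other array. The means were 10.62 ± 1.15 in Mll3-null and 11.26 ± 0.22 in WT cells (SD, n = 3 each). The difference was -0.64 ± 0.53 (SE; 95% interval -1.92 to 0.63; limma adjusted p = 0.85), against 0.02 ± 0.15 (-0.35 to 0.39) without Mll3-null replicate 3.

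**Figure D2:**
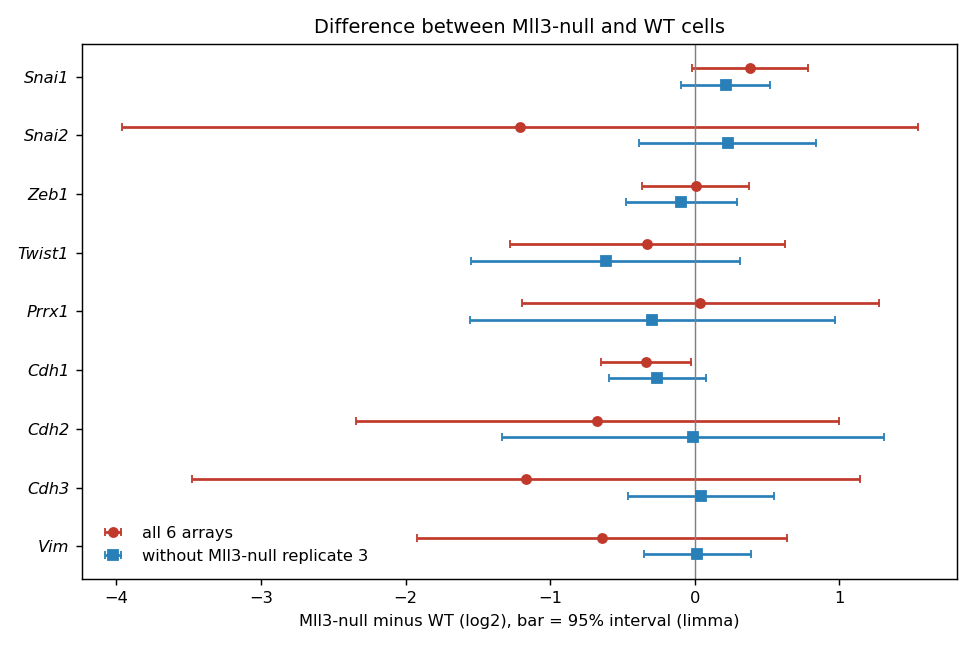
Mll3-null minus WT difference (log2, horizontal axis) of each gene with its 95% interval from limma, over all 6 arrays (red circles) and without Mll3-null replicate 3 (blue squares). The differences of Snai2, Cdh3, Cdh2 and Vim lie at -1.21, -1.17, -0.67 and -0.64 with all arrays and between -0.01 and 0.23 without that one.

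Cdh1, Cdh2 and Vim each have 2 probe sets of their own, and both gave a difference of the same sign. The lower-mean Cdh1 probe set read 6.06, 5.64 and 5.70 in the 3 Mll3-null arrays and 6.03, 6.27 and 5.95 in the 3 WT arrays, a difference of -0.28. The lower-mean Cdh2 probe set differed by -0.66 and that of Vim by -0.51. For Cdh2 both probe sets placed Mll3-null replicate 3 lowest and WT replicate 1 next, and for Vim both placed Mll3-null replicate 3 lowest. For Cdh1 the lowest array was Mll3-null replicate 3 on one probe set (10.44) and Mll3-null replicate 2 on the other (5.64). Probe sets of a gene read the same RNA sample and are not replicates.

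**Figure D3:**
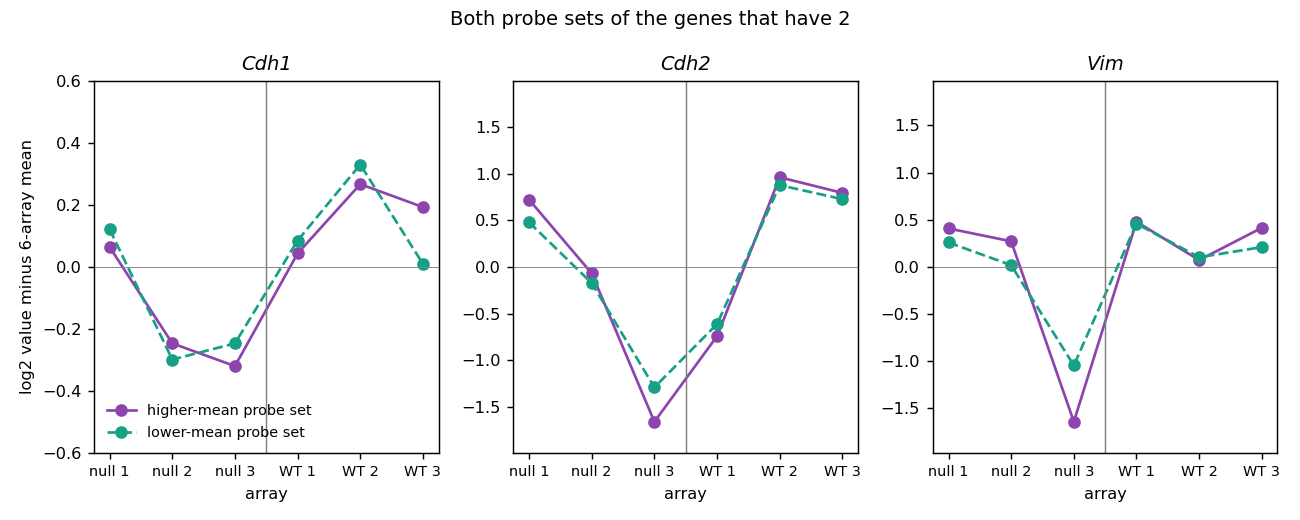
Log2 value minus its own 6-array mean on each array for both probe sets of Cdh1, Cdh2 and Vim, with Mll3-null arrays left of the WT arrays; lines only join the points of 1 probe set. The lower-mean Vim probe set also has its lowest value, 7.36, in Mll3-null replicate 3.

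Of the 9 EMT genes, 6 had a range of at least 1 log2 unit over the 6 arrays, against 10.5% of all genes: Snai2 (4.54), Cdh3 (3.95), Cdh2 (2.62), Vim (2.12), Prrx1 (1.88) and Twist1 (1.62). Over the 5 arrays without Mll3-null replicate 3, 3 of the 9 had such a range, Prrx1, Cdh2 and Twist1 (1.62 to 1.78), against 5.69% of all genes. The 5-array ranges of Snai2, Cdh3 and Vim were 0.79, 0.65 and 0.41. In Mll3-null replicate 3, 3 of the 9 (Snai2, Cdh3 and Vim) lay more than 1 log2 unit below all 5 other arrays, against the 1.33% of all genes given above. This array was noticed for such low values, so the count describes that sample and has no test. Cdh2 lay 0.92 below the next array and so just outside that limit. In all, this array was the lowest of the 6 for 5 of the 9, against 21.4% of all genes. In the same array Snai1, Prrx1 and Zeb1 were the highest of the 6, by 0.47, 0.10 and 0.01 log2 units.

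The array with low Snai2, Cdh3 and Vim was also the array with low basal markers. Of the 9 measured basal markers 4 (Krt14, Krt17, Trp63 and Acta2) lay more than 1 log2 unit below all other arrays there, against 1.33% of all genes. Another, the oxytocin receptor gene Oxtr, lay more than 1 unit above all of them, as did 123 of all genes (0.555%). The mean of the 9 was 7.03, 7.44 and 5.36 in the 3 Mll3-null arrays and 6.94, 6.82 and 7.07 in the 3 WT arrays. The 10 measured luminal markers averaged 8.41, 8.64 and 9.08 in Mll3-null and 8.72, 8.01 and 8.67 in WT arrays, with none of them more than 1 unit below or above all other arrays in Mll3-null replicate 3. Luminal keratins Krt8 and Krt18 stood at 10.57 and 11.44 there. The part of the cell types present in these EMT gene levels was not tested.

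**Figure D4:**
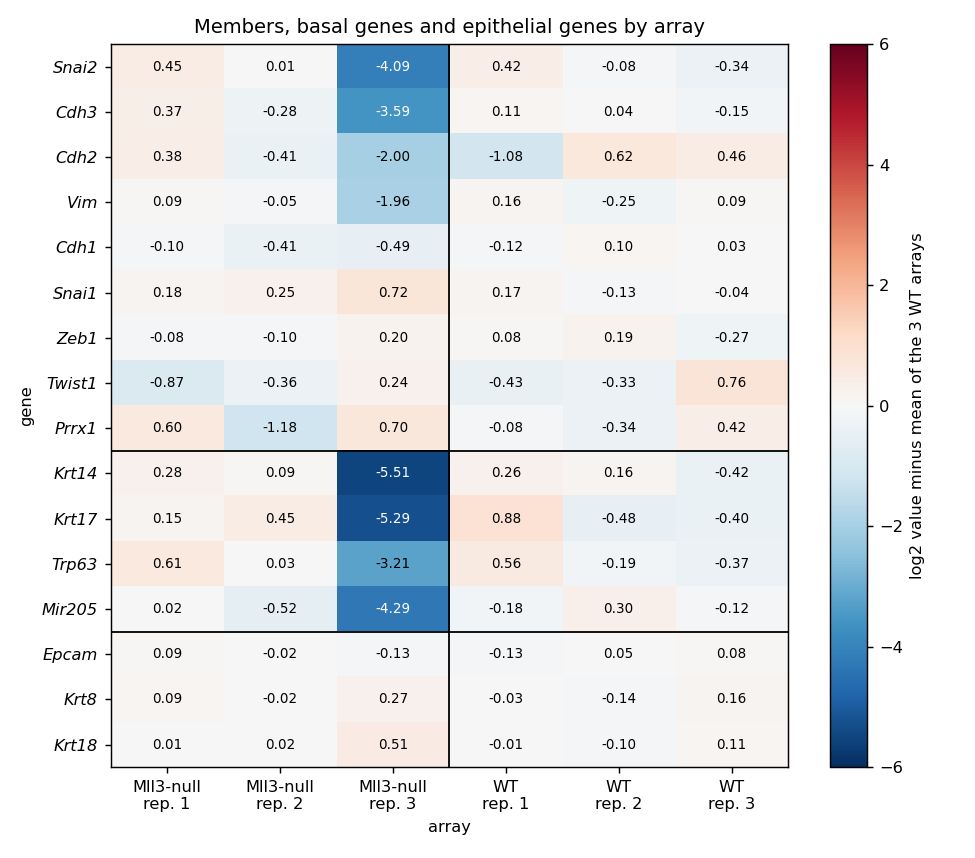
Heat map of log2 value minus the mean of the 3 WT arrays for the 9 EMT genes (top block), the basal genes Krt14, Krt17 and Trp63 with Mir205 (middle) and the epithelial genes Epcam, Krt8 and Krt18 (bottom), with each array a column. Mll3-null replicate 3 shows -4.09 for Snai2, -3.59 for Cdh3 and -5.51 for Krt14, against -0.49 for Cdh1 and -0.13 for Epcam. The basal genes shown were chosen among the low ones: of 9 measured basal markers, 4 lay more than 1 log2 unit below all other arrays there and 1 above.

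For each EMT gene with a range of at least 1 log2 unit, the 2 genes closest in pattern were found by the mean absolute difference between mean-centred log2 values over the 6 arrays. Histone genes, pseudogenes, small RNAs, predicted genes and the olfactory, vomeronasal and taste receptor genes were left out of this search. Snai2 was closest to Jag2, a Notch ligand (0.12 log2 units), and Col17a1, a hemidesmosome collagen (0.18). Cdh3 was closest to Lama3, a laminin chain (0.11), and the receptor kinase gene Axl (0.12). Vim was closest to Tpbg (0.15) and to Perp, a desmosome-associated gene (0.15). The 6 genes nearest to Snai2, Cdh3 and Vim all had their lowest value in Mll3-null replicate 3, from 5.03 for Jag2 to 9.80 for Perp. Cdh2 was closest to Fbln2, a fibulin of the matrix (0.17), and Megf10 (0.25). Fbln2 was also low in WT replicate 1 (8.03) beside Mll3-null replicate 3 (6.71). Twist1 was closest to the intermediate filament gene Nes (0.13) and to Stox2 (0.14), with Nes highest in WT replicate 3 (8.12). Prrx1 was closest to Fn1, fibronectin (0.21), and Rap1gap2 (0.23), and Fn1 had its lowest value (7.84) in Mll3-null replicate 2, with 9.57 to 10.45 on the other arrays. These genes were picked for values close to those of the EMT gene, so a shared lowest or highest array follows from that choice. With 6 arrays, such likeness describes these samples only.

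The wider EMT programme was described with 8 lists of other genes. No gene of any list had an adjusted p under 0.05 (limma), as for all genes. Of the 18 measured further EMT-promoting transcription factors 5 had a higher and 13 a lower mean in Mll3-null cells (median difference -0.14), against 48.5% of all genes with a lower mean. Without Mll3-null replicate 3 it was 7 higher and 11 lower (median -0.05). In Mll3-null replicate 3, 1 of the 18, Sox9 (8.98), lay more than 1 log2 unit below all other arrays, as did 1.33% of all genes. The 2 smallest p in this list were those of Smad3, a TGF-beta signal transducer (-0.33 ± 0.17), and Hmga2, an architectural chromatin protein (-0.79 ± 0.45, log2 differences ± SE). The Hmga2 difference was -0.33 ± 0.31 without Mll3-null replicate 3. Of the 13 TGF-beta inputs 7 had a higher and 6 a lower mean (median 0.03), with the signal transducer Smad2 at -0.27 ± 0.11 and the SMAD repressor Ski at 0.26 ± 0.12, or 0.15 ± 0.10 without Mll3-null replicate 3. The list averaged highest in Mll3-null replicate 3, 0.38 above its 6-array mean, against -0.20 to 0.09 on the other arrays. In that array 1 of the 13, Tgfbr3 (9.66), lay more than 1 log2 unit above all others, as did 0.555% of all genes. Smad2 (8.08) was at its lowest there, so not all of the list rose.

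Mesenchymal effector genes, the matrix, cytoskeletal and protease genes that EMT switches on, had a higher mean in 8 and a lower mean in 19 of 27 measured genes (median -0.18, and -0.05 without Mll3-null replicate 3). The smallest p were those of the gelatinase genes Mmp9 (-0.46 ± 0.12) and Mmp2 (0.52 ± 0.20), which differed in sign (log2 difference ± SE, limma adjusted p = 0.84 each). The list mean lay at 0.24, -0.05 and -0.66 from its 6-array mean in the 3 Mll3-null arrays, against 0.07 to 0.21 in WT arrays. In Mll3-null replicate 3, 6 of its genes lay more than 1 log2 unit below all other arrays, against 1.33% of all genes. They were Acta2, which is also in the basal list, Sparc, Tnc, Itga5, Axl and Postn. Postn, the matricellular protein periostin, was at 3.37 there, against 9.18 to 9.58 in the other Mll3-null arrays and 8.12 to 10.68 in WT arrays. Ptx3 (7.21 there) lay more than 1 unit above all other arrays, as did 0.555% of all genes.

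Epithelial genes were split in direction. The 25 measured junction and polarity genes split into 16 with a higher and 9 with a lower mean (median 0.04), with none more than 1 log2 unit below all other arrays in Mll3-null replicate 3. The smallest p were those of the tight junction genes Cldn4 (-1.58 ± 0.40) and Tjp1 (-0.25 ± 0.11), neither past the correction (log2 difference ± SE, limma adjusted p = 0.84). Of 14 epithelial identity regulators 9 had a higher and 5 a lower mean (median 0.09), with Grhl2, an activator of Cdh1, at 0.26 ± 0.11 and the ETS factor Elf3 at 0.67 ± 0.32. Leaving out Mll3-null replicate 3 gave 11 higher and 3 lower, and Elf3 then differed by 0.39 ± 0.27. Grhl2 was at 7.61, 7.75 and 7.88 in the 3 Mll3-null arrays, against 7.55, 7.38 and 7.53 in the 3 WT arrays. The groups of Grhl2 did not overlap, as for 10.7% of all genes. In Mll3-null replicate 3 its relative Grhl3 (4.61) and the factors Klf4 (4.88) and Klf5 (6.33) lay more than 1 unit below all other arrays. So did 1.33% of all genes.

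Of the 19 catenins and adherens junction partners, the proteins that tie cadherins to actin, 5 had a higher and 14 a lower mean (median -0.17). Without Mll3-null replicate 3 it was 10 higher and 9 lower (median 0.01). In Mll3-null replicate 3, 3 of the 19 lay more than 1 log2 unit below all other arrays, against 1.33% of all genes. These were Pkp4, Nectin1 and Plekha7. Afdn, which encodes afadin, differed by -0.17 ± 0.08 and Plekha7 by -0.70 ± 0.38, or -0.24 ± 0.14 without Mll3-null replicate 3. The catenin gene Ctnnb1 was at 11.27, 11.43 and 10.90 in the 3 Mll3-null arrays and 11.20, 11.37 and 11.25 in the 3 WT arrays (named after its values were seen). Of 18 other classical and type II cadherins 11 had a higher and 7 a lower mean (median 0.06), and 9 of the 18 had a mean over 4. Their smallest p were those of Cdh22 (0.23 ± 0.10) and Cdh20 (0.19 ± 0.09). In Mll3-null replicate 3, 1 of the 18, Cdh19 (7.97), lay more than 1 log2 unit above all other arrays, as did 0.555% of all genes. Cdh19 was at 3.55 and 5.67 in the other Mll3-null arrays and 3.69 to 4.21 in WT arrays. Its difference was 1.75 ± 1.01 (log2 ± SE), or 0.63 ± 0.58 without Mll3-null replicate 3. Of 20 repressor partners and stability factors of SNAI proteins 9 had a higher and 11 a lower mean (median -0.02). The deacetylase gene Hdac2 differed by -0.29 ± 0.11 and the Polycomb gene Suz12 by 0.27 ± 0.13 (log2 difference ± SE). In Mll3-null replicate 3, 2 of the 20 lay more than 1 log2 unit below all other arrays, against 1.33% of all genes. These were Loxl3 (6.43) and Ajuba (6.85). Without Mll3-null replicate 3 the median differences were 0.12 for these other cadherins, -0.01 for the SNAI partners, -0.03 for the TGF-beta inputs, 0.03 for the junction and polarity genes and 0.14 for the epithelial identity regulators.

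**Figure D5:**
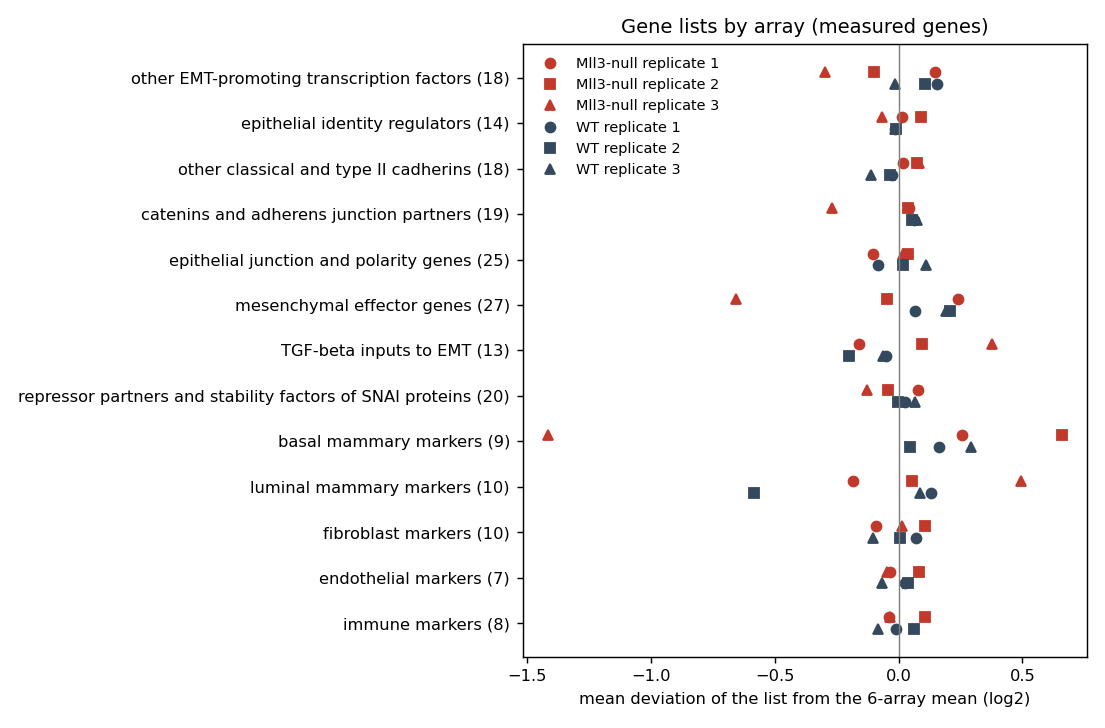
Mean log2 deviation of each gene list from its 6-array mean on every array (red, Mll3-null; dark, WT; shapes, replicate numbers), with the number of measured genes in brackets. Mll3-null replicate 3 lies lowest for basal markers (-1.41), mesenchymal effectors (-0.66) and further EMT-promoting factors (-0.30). It is also lowest for catenins (-0.27), SNAI partners (-0.13) and epithelial identity regulators (-0.07). It lies highest for luminal markers (0.49), TGF-beta inputs (0.38) and other cadherins (0.08), and near 0 for epithelial junction genes (0.02).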

How the data were processed

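Per the submitters' processing notes the 6 single-channel Affymetrix arrays were processed with Affymetrix Expression Console; no version, summarization method or genome build was stated. The deposited values were read as log2 expression, since they run from 1.72 to 13.56 with near-equal quartiles on all arrays (lower 3.27 to 3.29, upper 6.51 to 6.59), and such scaling hides any change in a cell's total RNA. Of 41345 probe sets 23521 carried exactly 1 symbol in the platform annotation. The probe set with the highest mean stood for each of 22180 genes. No filter was applied.

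Mll3-null and WT arrays were set against each other in R 4.3.3 with limma 3.58.1 (lmFit, eBayes, genotype only, two-sided, Benjamini-Hochberg over all genes, threshold 0.05), tested on simulated data. The members and lists were chosen with earlier results of these data known. Lists are given by counts and medians without a test. List genes not measured were those without a probe set of their own. Named list genes are the 2 of smallest p, none having passed. Genes more than 1 log2 unit outside all other arrays in Mll3-null replicate 3, and single markers of the marker lists, were named after their values were seen. The genes named for likeness exclude histones, pseudogenes, small RNAs, predicted genes and the olfactory, vomeronasal and taste receptor families. Precision is limited by 3 arrays per group.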

Additional observations from a re-analysis of the deposited data

How the results depend on the processing

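Under 15 alternatives (spread model, array weights, a filter at a mean of 4, normalization, probe set choice, the replicate block and each array left out; the lowest-mean probe set was added after seeing the data) 0 genes passed the correction in limma, with 716 to 2742 genes at an unadjusted p under 0.05. No EMT gene passed under any of them (smallest adjusted p = 0.25), and 121 of 135 values kept their direction. The spread model and the replicate block cannot change a difference or a list median. Nor can the filter change the difference of an EMT gene, or probe set choice that of a gene with a single probe set. Part of the counts of unchanged values was thus fixed in advance. Leaving out single arrays turned the sign of Snai2 (-2.04 to 0.23), Cdh3 (-1.93 to 0.041), Vim (-1.01 to 0.018), Twist1 (-0.61 to 0.050), Prrx1 (-0.29 to 0.65) and Zeb1 (-0.13 to 0.10). For Snai2, Cdh3 and Vim the array was Mll3-null replicate 3. Array weights turned Prrx1 (-0.66) and Zeb1 (-0.049), with the least weight, 0.518, on Mll3-null replicate 3 and the most, 2.75, on Mll3-null replicate 2. Zeb1 also turned with median centring (-0.016) and quantile normalization (-0.022). The cause was not tested. Cdh1 (-0.45 to -0.26), Cdh2 (-1.21 to -0.01) and Snai1 (0.21 to 0.48) kept their sign in all alternatives. List medians moved by less than the spread between replicates in 194 of 195 cases, a spread that includes Mll3-null replicate 3 itself (SD of the basal list mean 1.10 in Mll3-null against 0.12 in WT arrays). Leaving out that array turned the median of the basal list (0.21 against -0.18), the catenins (0.01 against -0.17), the TGF-beta inputs (-0.03 against 0.03) and the endothelial list. The exception in size was the other cadherins without Mll3-null replicate 3 (0.12 against 0.06).

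Whether the replicate numbers pair the samples is not known. The deviations of same-numbered arrays correlated at 0.03, 0.08 and 0.31 across genes. Mll3-null replicates 2 and 3 correlated best with the WT array of their own number, and Mll3-null replicate 1 with WT replicate 2 (0.22). With 3 arrays per group such correlations cannot decide for or against pairing, so both fits are given. With the replicate block 0 genes were called (1290 at an unadjusted p under 0.05), and the differences were the same, with adjusted p of 0.76 for Cdh1 and 0.77 for Snai2.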
